A study of Mus musculus with 30 samples.

Results

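Transformation of mouse embryonic fibroblasts (MEFs) without functional Smchd1 was described from 6 of the 30 bead arrays of the series, which were chosen by their sample titles and not by any measured value. They were 3 arrays of transformed Smchd1 null MEFs and 3 arrays of primary Smchd1 null MEFs. All of these cells carried the MommeD1 point mutation of Smchd1 on the FVB/N background. The transformed cells combined knockdown of p53 with overexpressed HRasV12 and were collected 2 weeks after transformation, and the primary cells were kept in culture for 2 to 3 passages. The 3 transformed and 3 primary arrays of wildtype FVB/N MEFs share the fit that gives the SE and p-values. Their levels are given only where the null cells are set against them. The labels do not say how many embryos, cultures or transformations lie behind 3 arrays. The p-values therefore rest on how far the 12 culture arrays of both genotypes scatter, and part of that scatter may be technical. The labels also do not give the vectors or say whether the transformed cells are clonal.

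Primary fibroblasts stop dividing after a limited time in culture, and p53 is the transcription factor that enforces much of this arrest through targets such as the cell cycle inhibitor Cdkn1a. HRasV12 is a form of the small GTPase Ras that stays active and drives the MAP kinase cascade, which acts on Ets and AP-1 transcription factors. An active Ras alone arrests primary mouse fibroblasts, while active Ras with loss of p53 lets them grow and form tumours. Smchd1 encodes a chromatin protein related to the SMC family, which keeps genes silent on the inactive X chromosome and in clusters of autosomal genes.

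Levels are log2 intensities after quantile normalization of all arrays together, and a difference is the mean of null transformed MEFs minus that of null primary MEFs, with its standard error (SE) from limma and n = 3 arrays per group. A gene was called when its Benjamini-Hochberg adjusted p was under 0.05 and its difference was at least 1, which is 2-fold. A group whose 3 arrays all lay at or under background was taken as not above background, and its fold is then given as a lower bound. Background was 6.28 to 6.36 on the 6 null arrays. Correlations between arrays of a group were 0.993 to 0.994 in null transformed and 0.988 to 0.992 in null primary MEFs. All primary arrays were on 1 chip and all transformed arrays on another, and the null arrays of the stages held different positions on their chips. Stage, chip and position cannot be told apart within the null cells.

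Of 13870 genes tested, 709 (5.11%) were called higher and 1360 (9.81%) lower in null transformed than in null primary MEFs. The arrays of the groups did not overlap for 60.0% of the genes. The falls were more numerous than the rises, and the median difference was 1.37 among genes called higher and -1.71 among genes called lower. Among called genes, 519 were lower and 143 higher by at least 4-fold, and 77 were lower and 19 higher by at least 16-fold. Of the genes called lower, 470 were not above background in null transformed MEFs, and of the genes called higher, 63 were not above background in null primary MEFs. With the adjusted p alone and no smallest fold, 3975 genes were higher and 3576 lower.

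The engineered genes were examined as a check of the labels. Trp53, which encodes p53, had levels of 7.71, 7.39 and 7.54 in null transformed MEFs, against 10.59, 10.71 and 10.65 in null primary MEFs. Its groups lay far apart, and it fell by 3.10 ± 0.10 on the log2 scale (adjusted p = 3.77e-11), which is 8.57-fold. Hras had levels of 10.44, 10.32 and 10.35 in null transformed MEFs, against 10.08, 10.21 and 9.999 in null primary MEFs. Its difference of 0.27 ± 0.09 was too small to be called, and a second Hras probe differed by 0.19. The sources used here do not say whether these mouse probes read the introduced HRasV12. Smchd1 had levels of 7.33, 7.24 and 7.32 in null transformed MEFs, against 7.18, 7.35 and 7.24 in null primary MEFs. The groups overlapped (difference 0.04 ± 0.09, adjusted p = 0.751). In wildtype MEFs the same probe averaged 9.43 in transformed and 9.58 in primary cells, so the null label held in both stages.

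Cdkn2a showed the largest rise of the genes that carry a symbol. It encodes p16Ink4a, an inhibitor of the cyclin D kinases, and p19Arf, which stabilizes p53. Its levels were 14.15, 14.14 and 14.26 in null transformed MEFs, against 6.46, 6.05 and 6.11 in null primary MEFs, where only 1 of the 3 arrays was above background. All transformed arrays were near the top of the scale and all primary arrays near its floor, a difference of 7.97 ± 0.11 (adjusted p = 2.20e-14). The other 2 Cdkn2a probes differed by 7.17 and 6.82. Its neighbour Cdkn2b, which encodes the related inhibitor p15Ink4b, had 12.57, 12.66 and 12.71 in null transformed MEFs, against 8.95, 9.23 and 9.11 in null primary MEFs. It rose by 3.55 ± 0.11, which is 11.7-fold.

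Of the 33 measured genes of the Trp53, Ras and Cdkn2 pathways, 7 rose and 2 fell, where 5.11% of all genes rose and 9.81% fell, with a median difference of 0.06 against 0.04 over all genes. Cyclin D1 (Ccnd1), the partner of the kinases that p16Ink4a blocks, rose by 2.35 ± 0.08 to a mean level of 14.63, against 12.29 in null primary MEFs. Myc (1.31 ± 0.12), the S phase factors E2f1 (1.14 ± 0.10) and E2f3 (1.02 ± 0.14) and the Ras GTPase-activating protein gene Rasa1 (1.07 ± 0.09) rose too. Cdkn1c, which encodes the inhibitor p57, fell by 2.22 ± 0.16 and Trp53 was the other fall. The Ras gene Nras (0.12 ± 0.09) and the kinase gene Braf (-0.14 ± 0.13) were not called.

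Of 26 measured p53 targets 1 rose and 2 fell, shares near those over all genes (5.11% higher and 9.81% lower), with a median difference of 0.10. Cdkn1a had levels of 11.53, 11.46 and 11.54 in null transformed MEFs, against 11.48, 11.48 and 11.62 in null primary MEFs. These overlap, with a difference of -0.02 ± 0.09 (adjusted p = 0.891). Mdm2, which encodes the ubiquitin ligase of p53, differed by 0.46 ± 0.12 and was not called. The stress-response gene Sesn1 fell by 1.86 ± 0.11 and the death receptor gene Fas by 1.24 ± 0.08, and the kinase gene Plk3 rose by 1.98 ± 0.12.

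**Figure D1:**
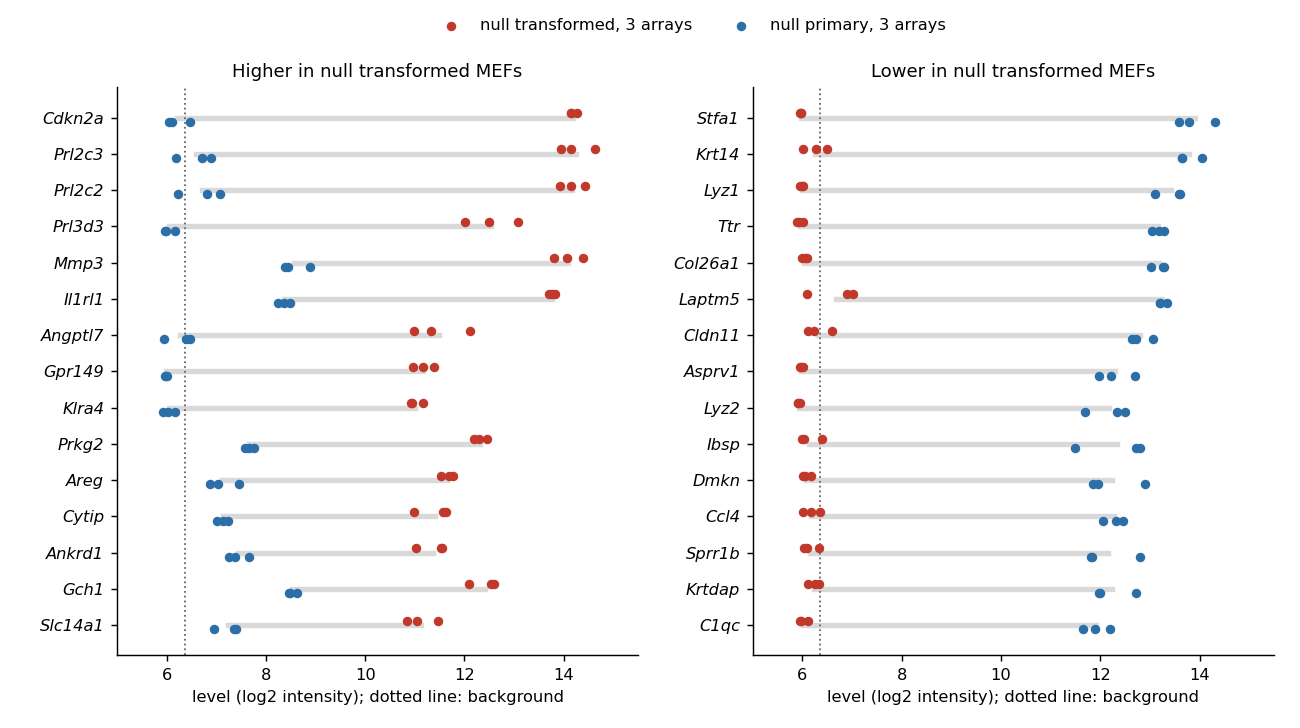
Levels (log2 intensity, horizontal axis) of the 15 largest rises and the 15 largest falls with a gene symbol on each of the 3 null transformed arrays (red, upper points of a row) and 3 null primary arrays (blue, lower points). The dotted line is the highest background of the 6 null arrays. Every pair of groups is apart, and most of the genes that were lower sit at background on the transformed arrays.

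Among the other large rises, angiopoietin-like 7 (Angptl7), a secreted protein gene, had 11.33, 12.12 and 10.99 in null transformed MEFs, against 5.94, 6.48 and 6.40 in null primary MEFs. It rose by 5.21 ± 0.33, and 2 of the 3 primary arrays were above background. The orphan receptor gene Gpr149 was at least 29.4-fold higher. Prkg2, a cGMP-dependent kinase gene, rose by 4.65 ± 0.15, the cytohesin partner gene Cytip by 4.27 ± 0.18 and the urea transporter gene Slc14a1 by 3.88 ± 0.19. Gch1, whose enzyme starts the synthesis of tetrahydrobiopterin, rose by 3.89 ± 0.13. Among the other large falls, the collagen gene Col26a1 was at least 114-fold lower. The tight junction gene Cldn11 had 6.10, 6.59 and 6.23 in null transformed MEFs, against 12.71, 12.64 and 13.07 in null primary MEFs, with 1 transformed array above background, and fell by 6.50 ± 0.16.

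Genes that Ras and the MAP kinase cascade are known to induce were examined next. Of 36 measured members 20 rose and 3 fell, with a median difference of 1.41 (1.34 with members not above background at their bound), where 5.11% of all genes rose and 9.81% fell. The Ets factors Etv1, Etv4 and Etv5, typical targets of the cascade, rose by 3.56 ± 0.13, 3.13 ± 0.15 and 1.75 ± 0.11. Of genes for inhibitors of the cascade, the phosphatase genes Dusp4 and Dusp6 rose by 2.14 ± 0.15 and 1.59 ± 0.11, and Spry4, whose product blocks Ras signalling upstream, by 1.78 ± 0.17. Spred1 (0.76 ± 0.12), Spred2 (0.35 ± 0.18) and Dusp1 (0.33 ± 0.11) were not called. Il1rl1, the gene of the IL-33 receptor, had levels of 13.70, 13.77 and 13.82 in null transformed MEFs, against 8.24, 8.48 and 8.36 in null primary MEFs. It rose by 5.40 ± 0.14, and the gene of its ligand, Il33, by 1.29 ± 0.19. The chromatin protein genes Hmga1 (3.16 ± 0.09) and Hmga2 rose, the second by at least 2.44-fold because it was not above background in null primary MEFs.

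The AP-1 genes encode factors downstream of the same cascade. Of 11 measured members 1 was called, Maff (1.01 ± 0.11), where 5.11% of all genes were called higher and 9.81% lower. Its call was lost in the test against a 2-fold change (adjusted p = 1.0) and in 6 other alternatives (0.75 to 0.98), among them the deposited values and leaving out null transformed replicate 3, null primary replicate 1 or null primary replicate 2. Fos had 12.91, 12.82 and 12.83 in null transformed MEFs, against 12.99, 13.02 and 13.07 in null primary MEFs. All transformed arrays were below all primary ones, but by only 0.17 ± 0.11 on average (adjusted p = 0.189). Jun differed by -0.06 ± 0.10 and Junb by 0.25 ± 0.11. Fosb differed by 0.91 ± 0.19, with 10.67, 10.41 and 10.78 in null transformed MEFs against 9.14, 10.07 and 9.90 in null primary MEFs, and it passed the call without null transformed replicate 2 (1.02), null primary replicate 2 (1.09) or null primary replicate 3 (1.01).

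The proliferins are placental hormones of the prolactin family that growth factors induce in fibroblasts. Of 6 listed members 3 were measured and all 3 rose, where 5.11% of all genes rose and 9.81% fell. Prl2c3 had levels of 13.94, 14.15 and 14.63 in null transformed MEFs, against 6.90, 6.71 and 6.19 in null primary MEFs. Prl2c2 had 13.92, 14.14 and 14.42 in null transformed MEFs, against 6.81, 7.08 and 6.23 in null primary MEFs. Both genes, on chromosome 13, sat at the top of the scale on all transformed arrays, with differences of 7.64 ± 0.19 and 7.45 ± 0.19. For each, 2 of the 3 primary arrays were above background. Prl2c5 rose by at least 1.63-fold, a call that was lost without null transformed replicate 3 (0.78), on the deposited values (0.86) and when fewer arrays were normalized together (0.95). Their relative Prl3d3, a placental lactogen gene, rose by at least 75.2-fold (adjusted p = 3.22e-10), with 12.01, 12.49 and 13.08 in null transformed MEFs against 6.00, 5.96 and 6.17 in null primary MEFs. The coding sequences of these genes are closely related, so a probe can read more than 1 of them and single members are uncertain.

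Growth factor genes moved in both directions. Of 35 measured growth factors and receptors, 8 rose and 11 fell, with a median of -0.01, where 5.11% of all genes rose and 9.81% fell. Amphiregulin (Areg), a ligand of the EGF receptor, had 11.52, 11.68 and 11.76 in null transformed MEFs, against 7.03, 6.87 and 7.46 in null primary MEFs, a rise of 4.53 ± 0.18 or 23.1-fold. Hbegf (3.10 ± 0.12) and betacellulin (Btc, 1.85 ± 0.15) are ligands of the same receptor and also rose, while epigen (Epgn) fell by 2.21 ± 0.41 and Egf, above background on 2 of 3 arrays in each null group, differed by 0.01 ± 0.17. The receptor gene Egfr fell by 1.94 ± 0.15. The neurotrophin Bdnf (3.29 ± 0.15) and the keratinocyte growth factor Fgf7 (2.20 ± 0.17) rose too. Igf1, a growth and survival factor, had 8.97, 8.56 and 8.79 in null transformed MEFs, against 12.40, 12.29 and 12.27 in null primary MEFs. Its groups were far apart and it fell by 3.54 ± 0.14, or 11.7-fold. Of the 10 measured IGF binding genes, 4 fell, among them Igfbp2 (-4.37 ± 0.12), Igfbp3 (-2.73 ± 0.24) and Igfbp5 (-2.24 ± 0.12), and Igfbp6 rose by 1.17 ± 0.11.

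The matrix metalloproteinases, secreted enzymes that cut matrix proteins, split into rises and falls. Of 19 measured proteinase and inhibitor genes 3 rose and 8 fell, where 5.11% of all genes rose and 9.81% fell. Stromelysin 1 (Mmp3) had 13.80, 14.39 and 14.07 in null transformed MEFs, against 8.38, 8.45 and 8.89 in null primary MEFs. It rose by 5.51 ± 0.18, or 45.7-fold, and stromelysin 2 (Mmp10) by 3.31 ± 0.28, with 2 of 3 primary arrays above background. Collagenase 3 (Mmp13) fell by 2.07 ± 0.23, with 8.37, 8.97 and 9.07 in null transformed MEFs against 11.23, 10.34 and 11.07 in null primary MEFs. The macrophage elastase gene Mmp12 was at least 4.78-fold lower and the gelatinase gene Mmp9 fell by 3.50 ± 0.16, beside the macrophage markers described below. The inhibitor Timp1 rose by 1.94 ± 0.09.

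Mmp3, Mmp10, Mmp12 and Mmp13 are neighbours on chromosome 9, where 5 Mmp genes were measured, and are the called members of the list there. Their promoters are shown because 2 of these genes rose and 2 fell while each has an AP-1 motif close to its start. The part of this motif in their differences was not tested. The sequences are from RefSeq (GRCm38.p6), 5′ to 3′, from 250 bases before the start to 50 after it. Capitals mark the AP-1 motif TGAGTCA, searched on both strands, on which it reads TGACTCA on the other.
Mmp3 (chr9:7445572-7445871, plus strand): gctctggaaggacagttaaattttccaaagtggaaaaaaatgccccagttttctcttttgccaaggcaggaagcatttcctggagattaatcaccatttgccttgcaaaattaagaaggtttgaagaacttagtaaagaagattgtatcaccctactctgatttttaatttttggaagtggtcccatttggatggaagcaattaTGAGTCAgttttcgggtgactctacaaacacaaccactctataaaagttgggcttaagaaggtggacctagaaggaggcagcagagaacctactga
Mmp10 (chr9:7502092-7502391, plus strand): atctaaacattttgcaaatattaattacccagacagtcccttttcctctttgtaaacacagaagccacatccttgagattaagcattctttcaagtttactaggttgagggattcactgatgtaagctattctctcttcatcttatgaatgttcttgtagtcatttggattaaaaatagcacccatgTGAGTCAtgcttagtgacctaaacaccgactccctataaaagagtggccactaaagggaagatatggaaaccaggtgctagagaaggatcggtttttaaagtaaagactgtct
Mmp12 (chr9:7347124-7347423, plus strand): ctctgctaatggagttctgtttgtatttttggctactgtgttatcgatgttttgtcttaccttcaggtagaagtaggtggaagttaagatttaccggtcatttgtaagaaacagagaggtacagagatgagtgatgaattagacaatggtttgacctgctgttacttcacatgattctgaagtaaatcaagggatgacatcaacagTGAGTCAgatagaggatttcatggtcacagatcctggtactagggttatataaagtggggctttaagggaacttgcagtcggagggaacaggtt
Mmp13 (chr9:7272264-7272563, plus strand): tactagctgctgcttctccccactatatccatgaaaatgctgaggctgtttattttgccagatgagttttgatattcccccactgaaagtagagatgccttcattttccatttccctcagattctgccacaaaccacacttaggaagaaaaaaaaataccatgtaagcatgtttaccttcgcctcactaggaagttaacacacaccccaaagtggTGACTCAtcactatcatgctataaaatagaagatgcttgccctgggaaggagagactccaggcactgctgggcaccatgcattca
The motif begins 46 bases before the start in Mmp3, 63 in Mmp10, 44 in Mmp12 and 35 in Mmp13, where it lies on the opposite strand. For Mmp12 the table holds a second start, whose window has no such motif. Of all 32851 promoter windows 5.20% hold the motif. A match describes the sequence and not binding.

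Among genes of the extracellular matrix, the main product of fibroblasts, more fell than rose. Of 22 measured collagen genes 10 fell, 1 rose and 11 were not called, with a median of -0.92, where 9.81% of all genes fell and 5.11% rose. Col1a1, a chain of the fibrillar collagen I, had 12.07, 12.01 and 11.99 in null transformed MEFs, against 14.25, 13.99 and 14.20 in null primary MEFs. It fell by 2.12 ± 0.16, and Col3a1 by 1.82 ± 0.22. Larger falls were in Col2a1, the collagen of cartilage (at least 31.0-fold), and Col14a1 (at least 23.4-fold), both not above background in null transformed MEFs. Of the 30 arrays, 6 detected the Col2a1 probe and 7 the Col14a1 probe. A probe needed detection on at least 3 arrays to enter, which sets part of these falls. The 1 rise was Col7a1, which anchors epithelia to the matrix (2.18 ± 0.12).

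Of 34 other matrix genes 12 fell, 3 rose and 19 were not called, with a median of -0.43, against the same shares over all genes. Elastin (Eln) had 7.79, 7.85 and 7.42 in null transformed MEFs, against 12.46, 12.31 and 12.63 in null primary MEFs. It fell by 4.78 ± 0.14, or 27.4-fold, and Lox, whose enzyme crosslinks elastin and collagen, fell by 1.86 ± 0.11. The small proteoglycans osteoglycin (Ogn, -3.63 ± 0.11) and lumican (Lum, -3.37 ± 0.16) fell as well. Fibronectin (Fn1) rose by 1.13 ± 0.13 and tenascin C (Tnc) by 1.55 ± 0.12.

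The fibroblast label was checked with 14 marker genes, whose mean level was 11.48 to 11.57 on null transformed arrays and 11.70 to 11.76 on null primary arrays. Of these 4 rose and 4 fell, where 5.11% of all genes rose and 9.81% fell. The surface marker Thy1 (1.21 ± 0.13) and S100a4 (2.82 ± 0.17) rose, the intermediate filament gene Vim differed by 0.74 ± 0.09, and the receptor genes Pdgfra (-0.02 ± 0.09) and Pdgfrb (0.09 ± 0.18) were not called. The falls were the collagen genes above with Col1a2 (-1.19 ± 0.11) and lumican. Of 21 genes of myofibroblasts and Srf, the factor that couples actin to transcription, 3 rose and 4 fell, against the same shares. Ankrd1, a target of that pathway, rose by 3.92 ± 0.16 and Inhba, which encodes activin A, by 2.32 ± 0.12. The falls were Tgfb2 (-2.135), Des (-2.092), Myl9 (-1.338) and Actg2 (-1.301). Myl9 missed the threshold without null transformed replicate 2 (-0.995), and Actg2 without null primary replicate 2 (-0.868).

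Markers of other cell types fell in null transformed MEFs. A probe entered where at least 3 of the 30 arrays detected it, so a marker silent in transformed cells could enter only through other arrays. The counts cover measured markers alone, and this filter sets part of the falls. For example, 14 of 22 listed neural, 6 of 11 adipocyte and 7 of 14 hepatic markers were measured. In the macrophage and leukocyte list 15 of 19 measured markers fell and none rose, 12 were not above background in null transformed MEFs and the median was -3.55, where 9.81% of all genes fell. Their mean level was 6.29 to 6.35 on null transformed arrays, at background, and 9.61 to 9.76 on null primary arrays. The lysozyme gene Lyz1 had 6.00, 6.00 and 5.95 in null transformed MEFs, against 13.60, 13.58 and 13.11 in null primary MEFs. It was at least 134-fold lower by this probe, and its other probes were detected on no array. Csf1r, the receptor that defines the lineage, was at least 2.36-fold lower and C1qc, a complement subunit made by macrophages, at least 46.9-fold lower. Laptm5, a lysosomal protein gene of blood cells, fell by 6.58 ± 0.19, with 2 of 3 transformed arrays above background. Lysozyme has a close copy, Lyz2, which was at least 56.2-fold lower, and a probe may read both. In bulk cultures, fewer cells of a type and less RNA per cell cannot be told apart.

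Keratinocyte and epithelial markers fell in 11 of 17 measured members and rose in 1, where 9.81% of all genes fell and 5.11% rose. Their median was -1.69 (-1.67 at the bounds). Keratin 14 (Krt14), of the basal layer of skin, had 6.01, 6.50 and 6.27 in null transformed MEFs, where 1 array was above background, against 13.65, 13.65 and 14.05 in null primary MEFs. It fell by 7.52 ± 0.25 (adjusted p = 6.29e-11). Other epidermal genes were among the 15 largest falls and not above background in null transformed MEFs. The protease inhibitor gene Stfa1 was at least 186-fold lower, the skin protease gene Asprv1 at least 61.1-fold, dermokine (Dmkn) at least 58.9-fold, Krtdap at least 58.4-fold and the cornified envelope gene Sprr1b at least 55.4-fold. Keratin 18 (Krt18), of simple epithelia, was the rise (1.62 ± 0.26).

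Muscle, nerve, cartilage and blood markers fell too, with counts to be read against the 9.81% of all genes that fell and the 5.11% that rose. Skeletal muscle markers fell in 15 of 19 measured members, and rose in 1, with a mean level of 6.70 to 6.81 on null transformed and 8.81 to 9.02 on null primary arrays. The myosin light chain Myl1 was at least 38.0-fold lower. Neural and glial markers fell in 12 of 14, among them Sox10, the factor of neural crest glia (at least 21.7-fold lower), while the neurofilament gene Nefm rose by 2.60 ± 0.16. Chondrocyte and bone markers fell in 7 of 12, with bone sialoprotein (Ibsp, 1 of 3 transformed arrays above background) lower by 6.20 ± 0.30 and the cartilage factor Sox9 higher by 1.08 ± 0.09. Endothelial markers fell in 9 of 15, erythroid markers in 4 of 8 and adipocyte markers in 4 of 6, with none higher.

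Hepatocyte and yolk sac markers fell in 6 of 7 measured members, with 14 listed and 5 not above background in null transformed MEFs. Over all genes 9.81% fell and 5.11% rose. Transthyretin (Ttr), a thyroid hormone carrier, was at least 112-fold lower in null transformed MEFs. The hepatic list varied most among null primary arrays, with means of 9.11, 10.76 and 9.67, against 6.14, 6.09 and 6.37 in null transformed MEFs. Smooth muscle and pericyte markers fell in 3 of 8 and rose in 1, against the same shares. Several genes that fell in the lists of matrix enzymes, complement and cytokines are also made by these cell types, and the part of the lost markers in them was not tested.

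**Figure D2:**
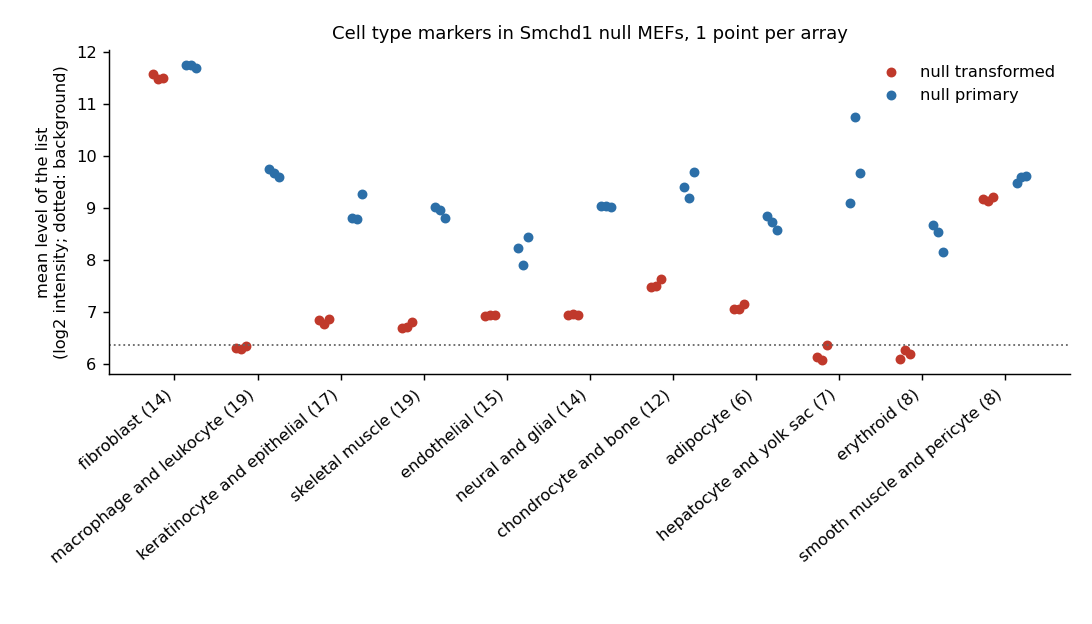
Mean level (log2 intensity, vertical axis) of the measured markers of each cell type on each of the 3 null transformed arrays (red, left) and 3 null primary arrays (blue, right), with the number of markers in brackets. Fibroblast markers lie at 11.48 to 11.57 in null transformed and 11.70 to 11.76 in null primary MEFs, and macrophage, hepatic and erythroid markers reach background (dotted line) on the transformed arrays.

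Inflammatory and immune genes were divided by function. Of 24 chemokine and cytokine genes 8 rose and 6 fell, where 5.11% of all genes rose and 9.81% fell. The IL-6 family cytokine Il11 had 9.47, 10.06 and 9.98 in null transformed MEFs, against 6.89, 6.53 and 6.69 in null primary MEFs, a rise of 3.13 ± 0.16. The chemokines Ccl5 (2.84 ± 0.14), Cx3cl1 (1.69 ± 0.15), Cxcl1 (1.23 ± 0.10) and Ccl2 (1.08 ± 0.22) rose. Cxcl12, which stromal cells use to hold blood cells, fell by 2.93 ± 0.18, and the macrophage chemokines Ccl9 by 4.62 ± 0.10 and Ccl4 by at least 60.3-fold, beside the macrophage markers. Of 17 complement genes 9 fell, with C1qa, C1qb and C1qc the largest falls, and the complement inhibitor gene Cd55 rose by 1.70 ± 0.15.

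Of 17 measured genes of MHC class I and antigen presentation 6 rose and none fell, with a median of 0.70, where 5.11% of all genes rose and 9.81% fell. Nlrc5, the activator of class I genes, had 9.16, 9.42 and 8.997 in null transformed MEFs, against 6.26, 6.12 and 6.04 in null primary MEFs, where it was not above background. It was at least 7.47-fold higher. H2-K1 (2.32 ± 0.18) and H2-D1 (1.63 ± 0.11), which present peptides, and the immunoproteasome gene Psmb8 (1.21 ± 0.15) rose. Of 24 measured type I interferon response genes none rose and 1, Oas2, fell (-1.50 ± 0.16), with a median of -0.12, counts below those shares.

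Calls among cell cycle genes were about as rare as the 5.11% of all genes called higher. Of 21 mitosis genes the spindle factor Tpx2 was the 1 called, with 8.74, 8.86 and 9.04 in null transformed MEFs, against 7.48, 7.94 and 7.46 in null primary MEFs (1.25 ± 0.16). No array of one group overlapped with the other. The mitotic kinase gene Aurka had 11.12, 11.17 and 11.22 in null transformed MEFs, against 10.04, 10.49 and 10.12 in null primary MEFs, a difference of 0.95 ± 0.12 that missed the threshold. By the adjusted p alone, 11 of the 21 were higher and 1 lower, where 3975 of all 13870 genes were higher and 3576 lower. Of 25 DNA replication genes none was called in either direction, and by the adjusted p alone 13 were higher and 1 lower, with a median of 0.31. The sliding clamp gene Pcna differed by 0.88 ± 0.14.

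Cholesterol and fatty acid synthesis genes rose in 6 of 23 measured members and fell in none, with a median of 0.67, where 5.11% of all genes rose and 9.81% fell. The desaturase gene Scd1 rose by 1.53 ± 0.11. On the deposited values the list's count was 2. Of 23 ribosome biogenesis and Myc target genes 6 rose and none fell, among them the processing factors Rrp9 (1.29 ± 0.11) and Nop2 (1.12 ± 0.13), and without null primary replicate 1 the count was 3. In glycolysis and hypoxia 1 of 27 rose, the pyruvate kinase gene Pkm (1.02 ± 0.11), a share below the 5.11% of all genes, and without null transformed replicate 3 this call was lost (0.999) and the count was 0. Of 24 Nrf2 target and glutathione genes 4 rose and 4 fell, where 5.11% and 9.81% of all genes did. The glutathione synthesis gene Gclm (1.46 ± 0.10) and the sulfiredoxin gene Srxn1 (1.60 ± 0.10) rose, and the secreted peroxidase gene Gpx3 fell by 2.49 ± 0.09.

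In the control of cell death, 3 of 23 genes rose and 4 fell, where 5.11% of all genes rose and 9.81% fell. Mlkl, which breaks the cell membrane in necroptosis, had 10.73, 10.70 and 10.58 in null transformed MEFs, against 7.67, 7.98 and 7.42 in null primary MEFs, and rose by 2.98 ± 0.14. Its kinase gene Ripk3 rose by 1.52 ± 0.13. Casp1, which matures IL-1, fell by 3.64 ± 0.25 and is also expressed by macrophages, while Casp4, which senses bacterial lipopolysaccharide in the cytosol, rose by 1.27 ± 0.17. The BH3 gene Bmf (-1.76 ± 0.11) fell, and the Bcl2 family genes Bcl2 (-0.20 ± 0.17) and Mcl1 (0.00 ± 0.11) were not called. Of 16 senescence genes 8 rose and 3 fell, against the same shares over all genes, and the 8 include Hmga1, Hmga2, Mmp3 and Timp1, which also count as Ras output or matrix enzyme genes.

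Of 34 developmental signalling genes of the Wnt, Bmp, Notch and Hedgehog pathways 11 fell, 3 rose and 20 were not called, where 9.81% of all genes fell and 5.11% rose. The Notch target Hey1 fell by 3.02 ± 0.12, the ligand Bmp4 by 2.82 ± 0.17 and the Wnt target Axin2 by 2.38 ± 0.12. The Bmp antagonist gremlin 1 (Grem1) had 10.43, 10.56 and 11.01 in null transformed MEFs, against 6.82, 6.67 and 7.16 in null primary MEFs, and rose by 3.78 ± 0.17. Of 23 Hox genes Hoxa2 was called higher (1.04 ± 0.15) and Hoxa5 lower (-1.53 ± 0.27), where 5.11% and 9.81% of all genes were, and the median was -0.02. The Hoxa2 call was lost on the deposited values (0.90) and without null transformed replicate 1 (0.93), null transformed replicate 2 (0.96) or null primary replicate 3 (0.96). Of 29 adhesion genes 8 rose and 7 fell, where 5.11% and 9.81% of all genes did. The laminin receptor chain Itga3 (2.63 ± 0.13) was the largest rise, and Icam1, which binds leukocytes, fell by 2.31 ± 0.14.

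Among the gene classes that Smchd1 is known to silence, imprinted genes fell in 8 of 22 measured members and rose in 1. Their median was -0.88 (-0.67 at the bounds), where 9.81% of all genes fell and 5.11% rose. The same 9 members were called in the same direction in wildtype MEFs. Mest, expressed from the paternal copy, had 8.69, 8.30 and 8.61 in null transformed MEFs, against 13.29, 13.02 and 13.14 in null primary MEFs, and fell by 4.62 ± 0.27. Peg3 fell by 1.91 ± 0.14, and Phlda2, expressed from the maternal copy, rose by 2.45 ± 0.12. Of 35 listed clustered protocadherins 9 were measured and 2 of these fell, Pcdhb3 (-1.73 ± 0.15) and Pcdhb7 (at least 1.9-fold). Both were also called lower in wildtype MEFs, but each probe was detected on only 6 of the 30 arrays. The detection filter therefore sets part of these falls. Of 33 chromatin silencing genes Hmga1 and Hmga2 rose and the demethylation enzyme gene Tet1 fell (-1.94 ± 0.14), counts to be read against the same shares. The Tet1 probe was likewise detected on only 7 of the 30 arrays. None of the 19 measured SMC family genes was called in either direction. By the adjusted p alone 9 were higher, with Smc5 at 0.87 ± 0.17, where 3975 of all 13870 genes were higher.

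**Figure D3:**
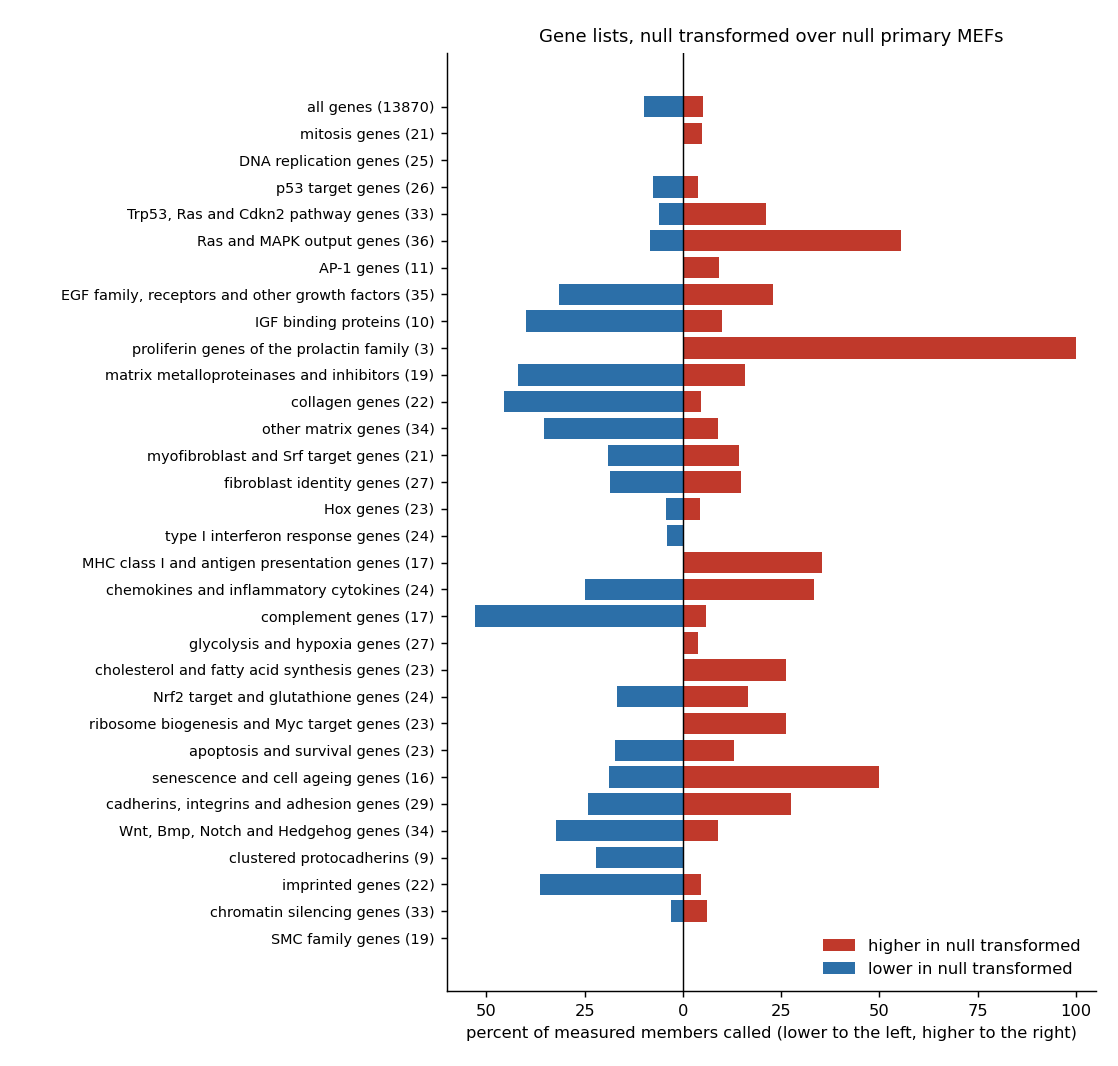
Share of measured members (percent, horizontal axis) called higher (red, right) or lower (blue, left) in null transformed over null primary MEFs for each gene list, with the number of members in brackets and all 13870 genes on top. Ras and MAPK output genes have the largest share of rises among lists of over 10 genes, and complement and collagen genes large shares of falls.

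Transformation of wildtype MEFs, whose difference shares no sample with the null one but shares its fit, gave 694 genes higher (5.00%) and 1216 lower (8.77%). Called in the same direction in both genotypes were 1592 genes, and none was called in opposite directions. In wildtype MEFs Il1rl1 rose by 5.36 ± 0.14 and Trp53 fell by 3.38 ± 0.10. Cdkn2a was at least 266-fold and Prl2c2 at least 161-fold higher, and Krt14 at least 101-fold lower, since 1 of the wildtype groups was not above background for each. A further 477 genes were called in null alone and 318 in wildtype alone, but a call in 1 genotype alone does not show a difference. That difference was tested as the transformation difference in null minus that in wildtype MEFs. Both genotypes shared the chips, so a shift common to a chip cancels. The array positions of the stages ran in opposite order in the genotypes, so an effect of position would not cancel.

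The test called 116 genes with a higher (0.836%) and 211 with a lower difference in null (1.52%), at an adjusted p under 0.05 and any size. They include 151 of the genes called in null and 64 of the 477 called in null alone. At an unadjusted p under 0.05 there were 2240 genes. The counts depend on which samples enter the fit, since a fit that also held the tumours called 3 higher and 27 lower. Leaving out 1 array at a time gave 48 to 144 genes higher and 123 to 226 lower.

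**Figure D4:**
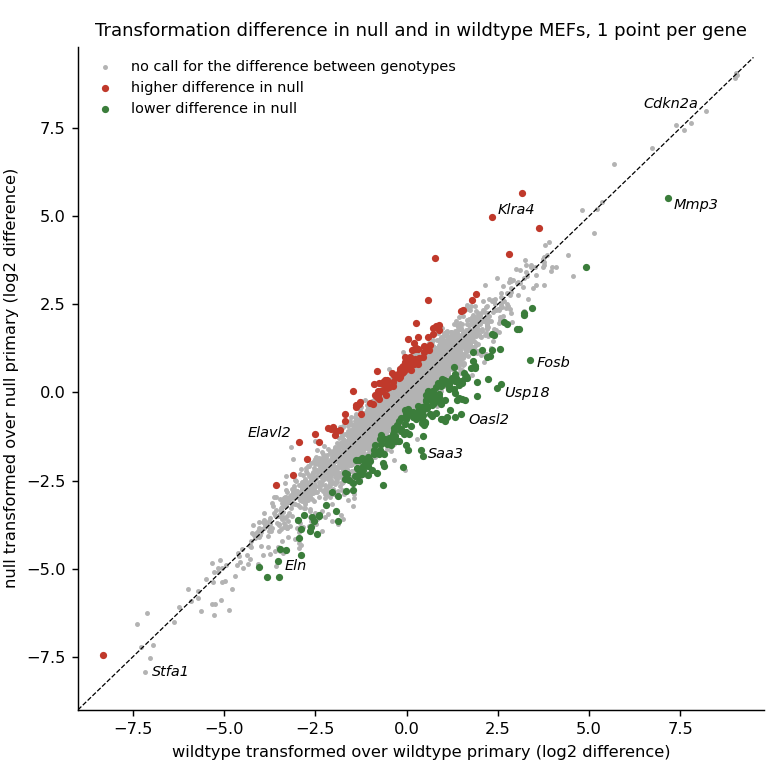
Log2 difference of transformed over primary MEFs in null cells (vertical axis) against the same in wildtype cells (horizontal axis), 1 point per gene. Red and green points are the 116 and 211 genes whose difference was higher or lower in null, and the dashed line marks equal differences. Most genes lie along the line, Klra4 above it and Mmp3, Fosb and Usp18 below it.

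Type I interferon response genes were lower in the null difference. The test called 17 of 24 measured members lower and none higher, with a median of -1.26, where 1.52% of all genes were lower. The wildtype difference had a median of 0.92 and the null one of -0.12. Usp18, a deubiquitinase that interferon induces, had 10.38, 10.37 and 9.99 in null transformed MEFs, 9.99, 10.16 and 10.24 in null primary MEFs, 11.81, 11.69 and 11.83 in wildtype transformed MEFs and 8.97, 9.07 and 9.83 in wildtype primary MEFs. The null groups overlap and the wildtype groups do not, so the null difference of 0.12 ± 0.19 was lower than the wildtype one by 2.37 ± 0.27 (adjusted p = 0.0005). The antiviral genes Oasl2 (-2.10 ± 0.29) and Bst2 (-2.03 ± 0.17) gave values of similar size for the difference between genotypes. With tumours in the fit these 3 calls were lost (adjusted p = 0.0656, 0.129 and 0.13), and 7 of the 24 members were called. Leaving out 1 array gave 14 to 18 members. Of 17 MHC class I genes 7 were lower, among them H2-T23 (-1.03 ± 0.19), with 4 to 8 on leaving out 1 array and 0 with tumours in the fit.

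Early response and protease genes were also lower in the null difference. Of 11 AP-1 genes 5 were called, where 1.52% of all genes were lower, with 4 or 5 on leaving out 1 array and 1, Fosb, with tumours in the fit. Fosb had the largest of these differences. It had levels of 11.54, 11.63 and 11.81 in wildtype transformed MEFs and 8.34, 8.25 and 8.28 in wildtype primary MEFs, so the wildtype rise of 3.37 ± 0.19 exceeded the null difference of 0.91 by 2.46 ± 0.27. Fos (-1.68 ± 0.15) and Junb followed the same pattern. Mmp3 rose in both genotypes but by 1.64 ± 0.25 less in null, and 8 of 19 proteinase and inhibitor genes were called lower, a count of 0 with tumours in the fit and of 1 without null primary replicate 1 or wildtype primary replicate 2. Elastin fell further in null, by 1.24 ± 0.21, as did lumican (-1.44 ± 0.23) and Mest (-1.72 ± 0.39), but with tumours in the fit no member of their lists was called lower. The acute phase gene Saa3 fell in null (-1.62 ± 0.23) and differed by 0.39 ± 0.23 in wildtype.

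Genes with a higher difference in null included Klra genes on chromosome 6, known for their Ly49 proteins on natural killer cells. Klra4 had 10.92, 10.94 and 11.17 in null transformed MEFs, against 6.03, 5.93 and 6.17 in null primary MEFs, 7.95, 8.62 and 8.28 in wildtype transformed MEFs and 5.97, 5.92 and 5.92 in wildtype primary MEFs. Both primary groups were at background. The transformed null arrays were all above the transformed wildtype arrays, and the difference was higher in null by 2.62 ± 0.20 (adjusted p = 4.54e-05). Klra16 (2.03 ± 0.20) and Klra1 (1.71 ± 0.11) were also called. These differences between genotypes are fitted values that rest on groups not above background and only describe. Within null cells Klra16 was at least 5.22-fold and Klra1 at least 3.18-fold higher, and with tumours in the fit Klra4 alone of these kept its call. Members of this family resemble each other and single probes can read several.

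Of 21 mitosis genes 9 were called with a higher difference in null and none lower, with a median of 0.68, where 0.836% of all genes were higher. Tpx2 was higher by 0.99 ± 0.22 and Aurka by 0.74 ± 0.16, with Aurka at 10.73, 10.68 and 10.54 in wildtype transformed MEFs and 10.29, 10.47 and 10.53 in wildtype primary MEFs. The mitosis median was 0.37 in null and -0.25 in wildtype. Leaving out 1 array gave 4 to 13 members, and with tumours in the fit there was none. The neuronal RNA-binding protein gene Elavl2 fell in both genotypes, by 1.40 ± 0.18 in null and 2.95 ± 0.18 in wildtype, and the imprinted genes Snurf (0.99 ± 0.18) and Ndn (0.75 ± 0.16) also fell less in null. No imprinted gene was called higher with tumours in the fit, and 1 or 2 were on leaving out 1 array.

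**Figure D5:**
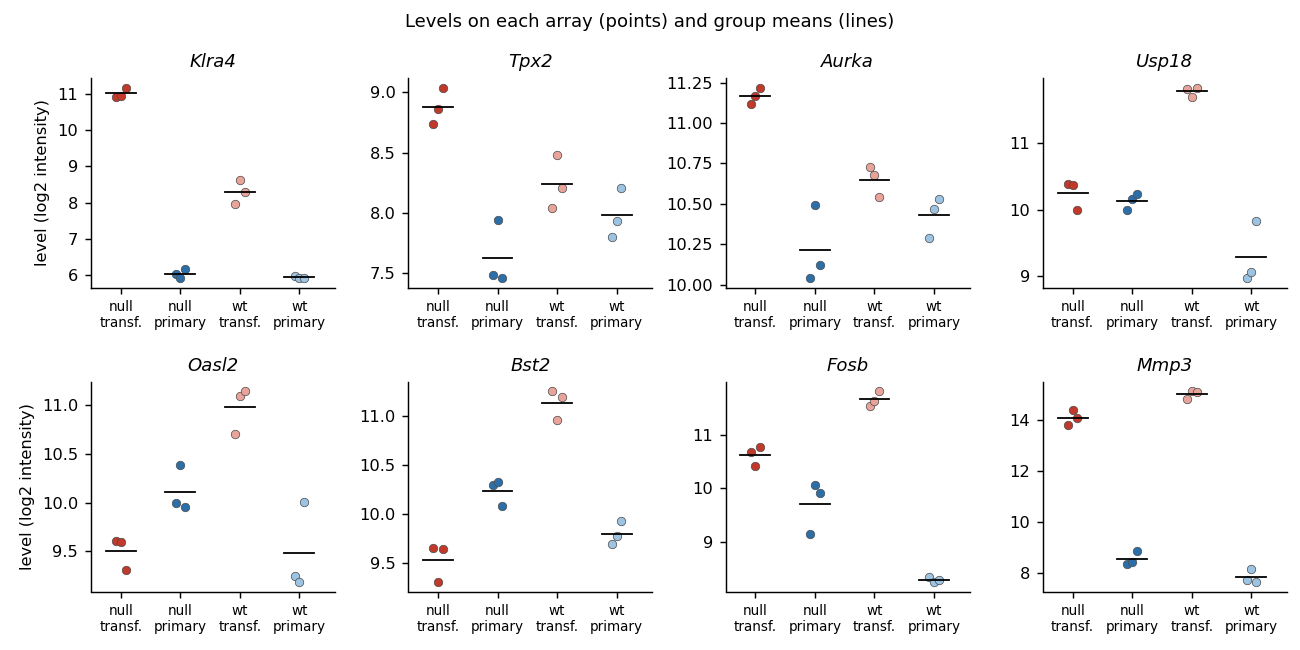
Levels (log2 intensity, vertical axes, which differ between panels and do not start at 0) of 8 genes named above on each array of null transformed, null primary, wildtype transformed and wildtype primary MEFs, with group means as lines. Klra4 is highest in null transformed MEFs and at background in both primary groups, and Usp18, Oasl2 and Bst2 are highest in wildtype transformed MEFs.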

How the data were processed

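Gene expression was measured on Illumina mouse whole-genome bead arrays, 30 in all. The deposited values are log2 intensities, made by the authors with BeadStudio and with R 2.15.1 and limma 3.12.1, per the submitters' processing notes. Per the values, the authors' columns share 1 distribution within a stage (largest gap 0.0208) but not between stages (0.256 between transformed and primary), so all 30 arrays were quantile normalized together. Detection p-values of each probe, deposited by the authors as BeadStudio wrote them per the file headers, served only to count the arrays that detected a probe. The 480 value columns of the scanner tables carry no sample label and were assigned to none. The further background correction planned for them was not run.

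The 20254 probes with a detection p under 0.01 on 3 or more arrays entered, with the probe of highest mean for each of 13870 genes. Probe symbols were updated through a RefSeq table (GRCm38.p6). Of 45281 probes 27400 had a current and 8341 an older symbol. One linear model over the 12 culture arrays was fitted with limma 3.58.1 in R 4.3.3, with 8 residual degrees of freedom, and p-values were adjusted by Benjamini-Hochberg over all genes. The difference between genotypes was an interaction term, called at an adjusted p under 0.05. Background of an array was set at percentile 95 of its levels for probes that no array detected, and the number of arrays limits the precision. The fit was run on simulated data with known differences, independent noise and no chip or position effect. That run cannot speak to stage and chip, which coincide, or to correlated arrays. Named were the 15 largest rises and falls, up to 6 called members per list, the 8 largest genotype differences per direction, the engineered genes and further list members for their role. The 31 gene lists, the 11 marker lists and these rules were chosen with earlier results of these data known. Alternatives changed the normalization, filters, probe choice, samples and fit.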

Additional observations from a re-analysis of the deposited data

Results flagged for a closer look

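The genes below are those with the largest tested difference between the transformation of null and of wildtype MEFs (null difference minus wildtype difference, log2 scale, limma). Among genes that were higher in null, Klra4 had 2.618, Klra16 2.03 and Klra1 1.706, and all 3 were not above background in null primary MEFs. The loci LOC100040020 (3.035) and LOC100038894 (2.506) showed the same pattern of levels, with at least 11.05-fold and 42.0-fold higher levels in null transformed than in null primary MEFs. Crisp1 had 1.472 and, like Klra1, was above background on the null transformed arrays alone. The values of all these Klra, LOC and Crisp1 probes are fitted against groups not above background and only describe, with bounds within null cells of at least 3.18-fold for Klra1, 5.22-fold for Klra16 and 2.30-fold for Crisp1. Elavl2 had 1.547, since it fell less in null. Spin2c had 1.507, with a difference of 0.03 in null and -1.48 in wildtype MEFs.

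Among genes that were lower in null, Fosb had -2.457, Usp18 -2.365, Oasl2 -2.104, Bst2 -2.028 and Saa3 -2.013. Cyp2f2, a cytochrome P450 gene, had -2.247, with 2 of 3 null transformed arrays above background. LOC100048346 had -2.335 and LOC100038882 -2.048, and neither was called in null. Array position differs between the genotypes within each stage, and its part in these values was not tested.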

How the results depend on the processing

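The count of genes called between null transformed and null primary MEFs stayed within 525 to 710 higher and 1270 to 1471 lower over 10 alternatives, the lowest rise count being that on the deposited values. Leaving out 1 array gave 697 to 756 higher and 1327 to 1392 lower. Without a smallest fold 3975 were higher and 3576 lower, and with limma's treat against a log2 difference of 1, 327 were higher and 836 lower. Of 181 values followed for named genes none changed sign, and 28 changed side of the threshold in at least 1 alternative other than treat.

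The genotype difference was less stable. With all groups in the fit, the tumours as 1 mean per recipient, it called 3 genes higher and 27 lower, against 116 and 211. The differences stayed the same, such as -2.365 for Usp18 and 2.03 for Klra16, and only their SE and p-values changed. The source of the changed spread was not tested. Leaving out 1 array gave 48 to 144 higher and 123 to 226 lower, both lowest without wildtype transformed replicate 3. Over 7 other alternatives there were 80 to 169 higher and 150 to 271 lower. Of the 16 genes with the largest genotype difference, LOC100040020 (adjusted p = 0.0918), LOC100038894 (0.105), Klra16 (0.143), Klra1 (0.474), Crisp1 (0.484), LOC100048346 (0.0532) and LOC100038882 (0.121) lost their call with all groups in the fit, besides the interferon genes Usp18, Oasl2 and Bst2. Cyp2f2 reached an adjusted p of 0.0655 in another alternative.

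Same-numbered null transformed and null primary arrays did not deviate together from their group means (r = -0.008, -0.023 and 0.036 over genes). Between null primary and wildtype primary arrays, r ran from -0.366 (null replicate 2, wildtype replicate 2) to 0.348 (null replicate 3, wildtype replicate 2). These primary arrays thus did not all deviate independently across genotypes, and the source was not tested. The labels do not say whether the numbers pair the samples, and this check cannot exclude a shared embryo or culture. With the replicate number as a block 710 genes were higher and 1358 lower, and the genotype difference gave 96 and 188. A level near background on an array is only a bound.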

Other observations

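Of 5 tested probes whose name is a pair of numbers and that no table used here names, 4 were called higher in null transformed MEFs and all 4 were not above background in null primary MEFs. They were chosen after their values were seen. One of these probes had levels of 15.15, 15.02 and 15.08 in null transformed MEFs, against 5.99, 6.13 and 5.98 in null primary MEFs, at least 443-fold higher. Another had 15.16, 15.19 and 14.91 in null transformed MEFs, against 5.95, 6.22 and 6.13 in null primary MEFs, at least 444-fold higher.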
